A study of Homo sapiens with 22 samples.

Results

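The accessible chromatin of KMS11, a human multiple myeloma cell line, was followed over culture without a degrader in 6 ATAC-seq libraries. KMS11 carries the translocation t(4;14), and the labels give this genotype to all 6. The groups were untreated cells at day 0, cells in DMSO at day 4 and cells in DMSO at day 10, with 2 libraries each. They are 6 of the 22 libraries of a series on the degradation of NSD2, which also holds the KMS34 line, libraries treated with the degrader NSD2LDD and KMS11 libraries labelled TKO. Peaks of the 6 lists on the 22 autosomes and X were merged into 50587 regions, against 96160 regions from the lists of all 22 libraries. The libraries were chosen by their labels alone. The regions are set by the peak calls of these same libraries, which are then compared.

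ATAC-seq uses the Tn5 transposase to cut DNA where nucleosomes leave it open, so peaks mark promoters, enhancers and other accessible sites. In t(4;14) myeloma the translocation places the histone methyltransferase gene NSD2 and the receptor gene FGFR3 beside immunoglobulin heavy chain enhancers. NSD2 places dimethylation on lysine 36 of histone H3, a mark of active and open chromatin. The libraries described here hold no degrader, so they give the differences between days of culture against which a degrader can be read.

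The 2 comparisons were day 4 minus day 0 and day 10 minus day 4. They share the day 4 libraries with opposite sign, so a high or low day 4 value moves both. Day 0 cells were untreated, while cells of days 4 and 10 grew in DMSO and, per the labels, were washed and diluted into fresh medium every 3 to 4 days. Culture time, solvent and handling therefore cannot be told apart in the first comparison. The sources used here do not give the DMSO concentration, the time since the last medium change or whether duplicates are separate cultures. The p-values thus measure only the spread between these samples. A fit that leaves out a library holds no spread for that library's day, so its p-values and counts take none of it in.

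Each region was measured in each library by its covered length, the bases that lie under that library's own peaks. For a gene the covered length was taken over its body and 5 kb either side, called its window below. The lists hold no read counts, so depth is unknown and a site without a peak may be closed or may have had too few reads. Differences between days are on the log2 scale of covered length plus 100 bp for regions and 200 bp for genes, relative to each library's median. The lists held 24979 to 39002 peaks. Day 0 replicate 2 was the shortest with 24979 peaks over 11.53 Mb, against 36913 peaks over 19.34 Mb in day 0 replicate 1. Covered lengths were 21.51 and 22.42 Mb at day 4 and 17.86 and 26.68 Mb at day 10. Median peak width was 439 and 401 bp at day 0, 542 and 478 bp at day 4 and 446 and 649 bp at day 10. The narrowest peak was 140 to 228 bp wide, so the lists also differed in the smallest peak they hold. Peak number was 30946 ± 8439 at day 0, 37116 ± 2667 at day 4 and 35131.5 ± 1437.5 at day 10 (mean ± SD, n = 2 each), and the day 0 spread spans the other days. For 2 libraries against 2 the lowest exact permutation p is 0.333, so no p is given for such totals. The share of peaks within 1 kb of a protein-coding gene end was 29.9% and 38.8% at day 0, 30.8% and 29.1% at day 4 and 32.7% and 30.2% at day 10. With every list shortened to its 24979 strongest peaks these shares were 37.1% to 40.2%.

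**Figure D1:**
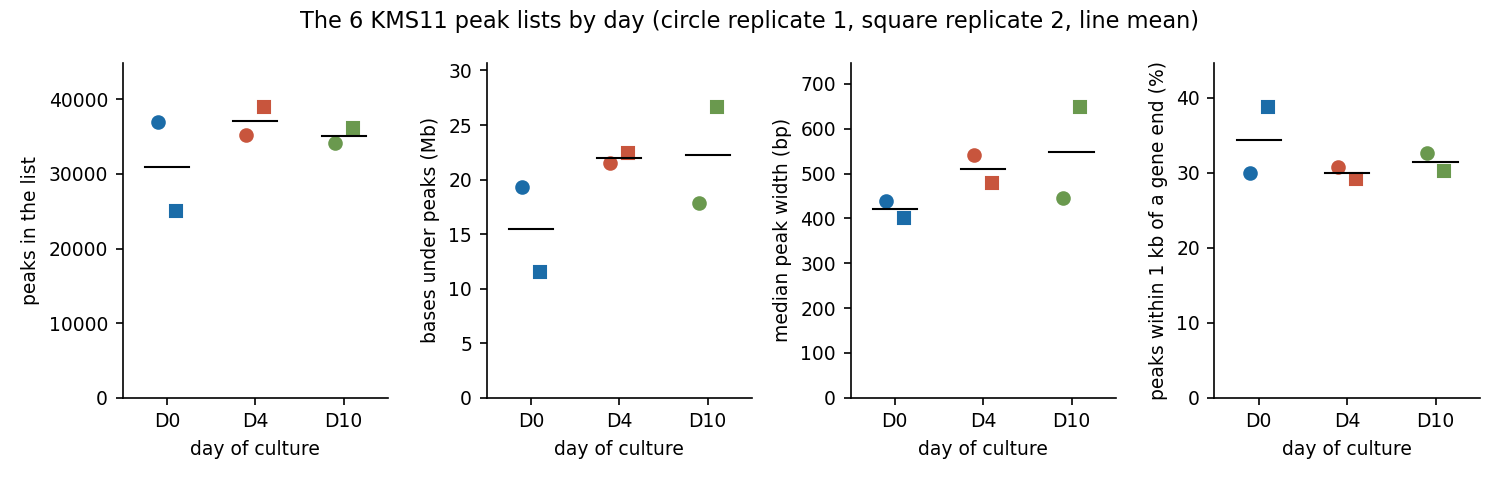
Peak number, bases under peaks in Mb, median peak width in bp and percent of peaks within 1 kb of a gene end, for the 6 libraries by day (circle replicate 1, square replicate 2, line mean of 2). Day 0 replicate 2 holds 24979 peaks, the fewest, and the highest gene end share, 38.8%, while the other 5 lists hold 34115 to 39002 peaks.

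Day 0 and day 10 duplicates were less alike than most libraries of different days. The Jaccard index of covered bases, the shared length over the joint length, was 0.509 for the day 0 duplicates, 0.670 for day 4 and 0.580 for day 10. Across days it ran from 0.401 to 0.652 with a median of 0.629 (12 pairs). The 4 across-day values of day 0 replicate 2 were 0.401 to 0.523, and the other 8 were 0.580 to 0.652.

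Genes that define plasma cells held called peaks in these libraries. Of 10 defining plasma cell genes, 9 had called peaks in all 6 libraries, as did 12846 of all 19974 protein-coding genes. So did 4 of 6 B cell markers, 3 of 6 stromal and endothelial markers and 2 of 8 T and NK markers. For erythroid and megakaryocyte markers it was 2 of 6, and for myeloid markers 0 of 6. IRF4 and PRDM1, transcription factors of plasma cell fate, held 475 to 1817 bp and 1288 to 4150 bp in their windows. XBP1, which drives the secretory program, held 1383 to 2423 bp, and SDC1, the surface proteoglycan CD138, held 698 to 2454 bp. SLAMF7, a surface receptor of plasma cells, had no called peak in any library. The myeloid markers LYZ, CD14, CD33 and MPO, the T and NK markers CD3D, GZMB and NKG7, the B cell markers MS4A1 and CD22, and GATA1 and PF4 of the erythroid and megakaryocyte lineages were also without a called peak in all 6. Some genes of other lineages had peaks in every library, among them CD247, CD8A, PAX5, EBF1, KLF1 and COL3A1. Within 1 kb of the gene ends, CD8A, EBF1 and KLF1 held peaks in all 6 libraries, PAX5 in 4, and CD247 and COL3A1 in none. Summed over 17 myeloid markers, covered length was 4314 and 2975 bp at day 0, 4879 and 5378 bp at day 4 and 4518 and 5550 bp at day 10. Over 21 T and NK markers it was 12740 and 5972 bp, 15260 and 18365 bp, and 13394 and 20947 bp in the same order. Over 24 plasma cell genes it was 30374 and 16111 bp, 41482 and 42911 bp, and 32651 and 49072 bp. All 3 sums were lowest in day 0 replicate 2, the shortest list, and the part of any other cell type in the results was not tested.

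Of the 50587 regions, 20476 (40.5%) were called in all 6 libraries, and 44.4% of these lay at gene ends. A further 11895 regions were called in 1 library alone, and 4247 in all but day 0 replicate 2. Regions called in both libraries of day 4 and neither of day 0 numbered 2190 (4.33%), and the reverse numbered 155 (0.306%). Both day 10 libraries and neither of day 4 held 657 regions (1.3%), and the reverse numbered 1317 (2.6%). Of the 2190, 812 regions were also called in both libraries of day 10, and 19.2% of them lay at gene ends. Of all 50587 regions, 23.2% lay at gene ends. With both libraries of 1 day and none of the other 4 as the rule, 71 regions were called at day 0 alone, of which 2 (2.82%) lay at gene ends, 598 at day 4 alone (5.69%) and 356 at day 10 alone (6.74%). Regions of 1 day alone ranked low by the −log10 q deposited for each peak. Their median rank within its list was the 17.4th, 15.5th and 15.0th percentile for days 0, 4 and 10. Regions called throughout stood at the 68.0th percentile. When a library is left out, a single list decides for its day, so such counts can by rule only stay or rise. The count of regions called in both libraries of day 4 and neither of day 0 was 8298 without day 0 replicate 1, which leaves the shortest list alone for that day, and 2618 without day 0 replicate 2. It was 6664 and 5001 without day 4 replicate 1 and 2, and 966 with lists of equal length. The reverse count of 155 was 3704 without day 0 replicate 2, 820 without day 0 replicate 1, 400 and 600 without day 4 replicate 1 and 2, 86 at −log10 q of 5 or more and 551 with lists of equal length. With lists of equal length, both of day 10 and neither of day 4 held 663 regions and the reverse 604, so their order turned. Leaving out a day 4 or day 10 library gave 1233 to 3813 and 2309 to 4996 for these.

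**Figure D2:**
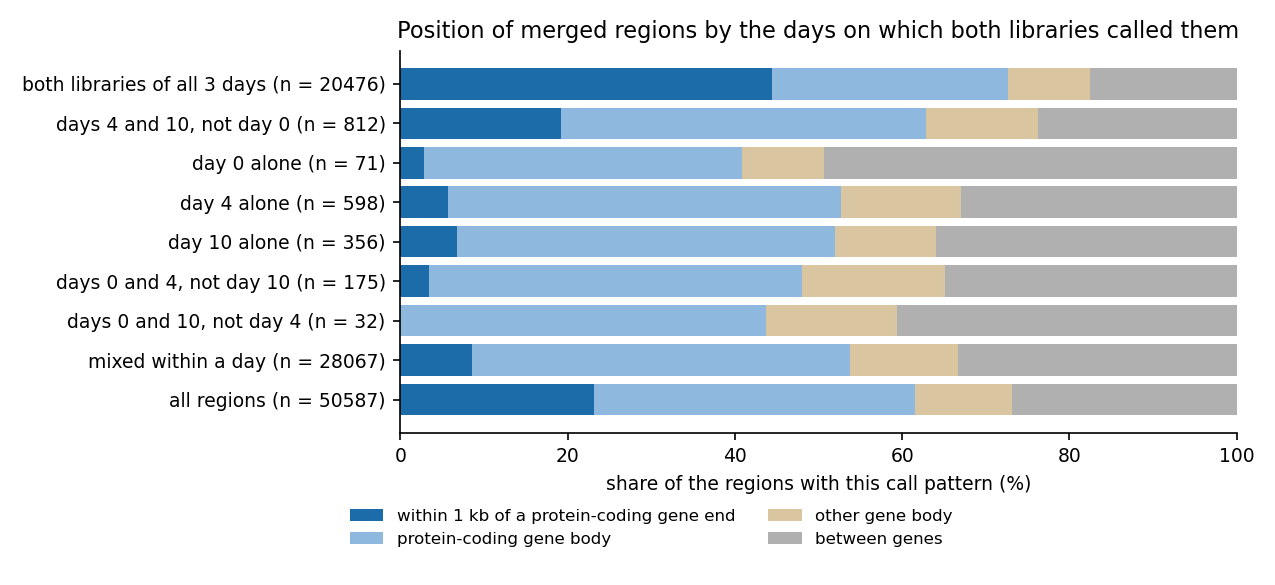
Share of regions in 4 position classes (x axis, percent) for each call pattern (rows, number of regions in brackets), where a day counts as called when both of its libraries hold a peak. Gene ends make up 44.4% of the 20476 regions called throughout, 19.2% of the 812 called at days 4 and 10 only and under 7% of those called on a single day. Their share over all regions is 23.2%.

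Across regions, no difference between days passed the test. Of 38692 regions called in at least 2 libraries, limma with Benjamini-Hochberg adjustment at 0.05 called 0 (0%) higher and 0 (0%) lower at day 4 than at day 0. At an unadjusted p under 0.05, 1916 (4.95%) were higher and 496 (1.28%) lower, and the smallest adjusted p was 0.102. For day 10 minus day 4 it called 0 (0%) higher and 0 (0%) lower, with 587 (1.52%) and 1077 (2.78%) at the unadjusted p and a smallest adjusted p of 1.00. The counts higher against lower at the unadjusted p depended on scaling: for day 4 minus day 0 they were 1542 against 768 with quantile normalization, 1427 against 776 with lists of equal length and 3385 against 77 with no scaling. For day 10 minus day 4 they were 675 against 598 with lists of equal length. With no scaling the median of all regions moved to 0.40 and that of all genes to 0.39 on the log2 scale in day 4 minus day 0, so the direction of differences holds relative to the library median. Without day 0 replicate 1 limma called 1572 regions in day 4 minus day 0, and without any other single library it called 0.

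Regions higher at day 4 at the unadjusted p were 6.53% of those at gene ends, 4.79% of those in protein-coding gene bodies and 3.52% of those between genes. Those lower at day 4 were 1.73%, 0.995% and 1.30% in the same order, so gene ends had the largest share in both directions. The median differences were -0.007, 0.081 and 0.036. Regions lower at day 10 than at day 4 were 0.704% at gene ends, 3.47% in protein-coding bodies and 3.73% between genes. Those higher at day 10 were 0.785%, 1.89% and 1.98% in the same order. These shares were not tested against each other.

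Across genes, 3 of 15071 (0.0199%) rose from day 0 to day 4 and 0 (0%) fell. At the unadjusted p, 1002 (6.65%) were higher and 216 (1.43%) lower. For day 10 minus day 4 limma called 0 (0%) higher and 0 (0%) lower, with 123 (0.816%) higher and 206 (1.37%) lower at the unadjusted p. With no scaling 1518 genes were higher and 3 lower at day 4 at the unadjusted p, and with lists of equal length 246 were higher and 205 lower at day 10. Without day 0 replicate 1 the number of genes called was 835, without day 0 replicate 2 it was 6, without day 4 replicate 1 it was 1, and without day 4 replicate 2 or either day 10 library it was 0. The 3 genes that rose are NEURL4, WDR18 and LOC124904106, which lie in gene-dense stretches of chromosomes 17 and 19.

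NEURL4, which encodes a neuralized family protein of the centrosome, lies at chr17:7315628-7329335 (hg38, RefSeq GRCh38.p14). Its window held 220 and 0 bp of peaks at day 0, 1730 and 1885 bp at day 4 and 1326 and 2049 bp at day 10. Both day 0 libraries lay below all 4 DMSO libraries. The log2 difference of day 4 minus day 0 was 2.40 ± 0.23 (SE, limma adjusted p = 0.0403), and that of day 10 minus day 4 was -0.15 ± 0.23. Most of the covered length lay in a region over the gene start (chr17:7329042-7330522), with 220 and 0, 998 and 1260, and 793 and 1432 bp in day order. A region at GPS2 (chr17:7314905-7315650), which encodes a subunit of a corepressor complex, held 0 and 0, 732 and 625, and 533 and 617 bp, and the windows of ACAP1, EIF5A and GPS2 overlap that of NEURL4.

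WDR18, a gene for a WD repeat protein of ribosome assembly, lies at chr19:982928-994557. Its window held 195 and 0 bp at day 0, 1261 and 1610 bp at day 4 and 1386 and 1801 bp at day 10. Again both day 0 libraries were the lowest. The log2 difference was 2.14 ± 0.22 (SE, limma adjusted p = 0.0403) for day 4 minus day 0 and 0.09 ± 0.22 for day 10 minus day 4. The length was spread over regions at the start (0 and 0, 180 and 287, 161 and 338 bp) and in the body (chr19:984053-984804, with 0 and 0, 509 and 549, 407 and 752 bp). Windows of ARID3A and GRIN3B overlap it.

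LOC124904106, an uncharacterised protein-coding locus at chr17:7835408-7845528, lies inside the window of KDM6B, which encodes a demethylase of lysine 27 of histone H3. Its window held 278 and 0 bp at day 0, 1946 and 3079 bp at day 4 and 1992 and 2617 bp at day 10, with a log2 difference of 2.71 ± 0.28 (SE, limma adjusted p = 0.0403). KDM6B itself held 1292 and 558, 3163 and 4633, and 3366 and 4079 bp, and its log2 difference of 1.53 ± 0.22 did not pass (adjusted p = 0.1002). The calls of NEURL4 and LOC124904106 were each lost in 9 of 21 alternatives, and that of WDR18 in 12. All 3 kept their direction but missed the threshold with lists of equal length, no scaling, fewer bases added, limma without trend and robust fitting, and without either day 10 library (adjusted p = 0.177 to 0.226), and without day 4 replicate 2 (0.102 to 0.240). WDR18 and NEURL4 also missed it without day 4 replicate 1 (0.107 and 0.0978). The WDR18 difference was 0.79 over gene ends only (adjusted p = 0.580) and 0.79 with windows of 50 kb either side (0.0626). Over gene ends only, LOC124904106 had 1.95 (adjusted p = 0.135). With a replicate block in the fit all 3 missed the threshold as well (limma adjusted p = 0.159).

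In KMS34, a second t(4;14) line sampled on the same days, the windows of these genes were covered at day 0 as well. NEURL4 held 1918 and 1879 bp there at day 0 and 2002 and 2102 bp in DMSO at day 4. Its day 4 minus day 0 difference was 0.09 ± 0.21 in KMS34, and the difference between the lines was 2.31 ± 0.30 (SE, limma interaction adjusted p = 0.158). For WDR18 and LOC124904106 the differences between the lines were 1.84 ± 0.33 (adjusted p = 0.430) and 2.42 ± 0.50 (0.513). Over 16486 genes the interaction test called 0 (0%) for day 4 minus day 0 and 0 (0%) for day 10 minus day 4, with 914 and 381 at the unadjusted p. In the KMS11 libraries labelled TKO, a label not explained in the sources used here, also untreated at day 0, NEURL4 held 450 and 405 bp, WDR18 639 and 1010 bp and LOC124904106 1284 and 856 bp.

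The next genes by p did not pass the test. GADD45B, a stress-induced growth arrest gene (chr19:2476127-2478257), held 415 and 174 bp at day 0, 1658 and 1734 bp at day 4 and 1767 and 2600 bp at day 10 (1.59 ± 0.18, adjusted p = 0.0559). ICAM1, an adhesion molecule gene and known NF-kappaB target, held 371 and 304, 1541 and 1601, and 1820 and 2668 bp (1.33 ± 0.19, adjusted p = 0.1002). PFN1, which encodes the actin-binding protein profilin, held 389 and 243, 1372 and 2200, and 1067 and 1601 bp, and its window shares its covered bases with that of ENO3. FGF8 and NPM3, neighbours on chromosome 10, held 192 and 0, 1107 and 1250, and 646 and 952 bp. In all of these windows the day 0 libraries were below all 4 later ones. Without day 0 replicate 1 the shortest list stands alone for that day. The differences at GADD45B, ICAM1, PFN1, ENO3, FGF8, NPM3 and KDM6B were then 1.175 to 2.146.

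No gene passed for a lower value at day 4, and those with the smallest p included windows with little covered length in any library. CNTN6, a neuronal adhesion gene, held 1033 and 254 bp at day 0, was listed at 0 in both day 4 libraries and held 419 and 671 bp at day 10 (adjusted p = 0.218). MMP1, a collagenase gene, held 331 and 341 bp, 0 and 0 bp, and 292 and 382 bp (adjusted p = 0.314), and TRDN, of muscle calcium release, held 328 and 222, 0 and 0, and 176 and 492 bp. These 3 windows were empty at day 4 alone. LSM3, an RNA processing gene, held 974 and 655, 573 and 680, and 585 and 734 bp (-0.67 ± 0.19, adjusted p = 0.410), and HNRNPK, an RNA-binding protein gene, 2969 and 1791, 1906 and 2123, and 1857 and 2777 bp (-0.57 ± 0.16). At both genes the day 0 and day 4 values overlap. COPS8, TMEM63C, SNAP91 and RSU1 had differences of -0.85 to -0.62, RGS22 was listed at 0 in both day 4 libraries (514 and 391 bp at day 0), and the adjusted p of these 5 ran from 0.313 to 0.444.

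Among single regions, some start sites were uncalled at day 0 and held broad peaks in every later library. The region at PPP1R15A (chr19:48872195-48873289), which encodes the phosphatase subunit GADD34 of the integrated stress response, held 0 and 0 bp at day 0, 979 and 914 bp at day 4 and 1095 and 836 bp at day 10 (limma adjusted p = 0.288). The ICAM1 start region (chr19:10270555-10271847) held 0 and 0, 661 and 887, and 767 and 1265 bp (adjusted p = 0.333). An intragenic region of NFIC, a nuclear factor I gene (chr19:3365987-3367780), held 0 and 0, 1046 and 1104, and 1028 and 1794 bp (adjusted p = 0.102). No fold is given where a day is listed at 0. The wider window of PPP1R15A, which takes in other peaks, did hold 929 and 822 bp at day 0. RAI1 on chromosome 17 had an intragenic region with 0 and 0, 879 and 1058, and 467 and 1398 bp. Regions at the ends of GADD45B and ARID3A, a DNA-binding protein gene, held some length at day 0: 415 and 174 bp and 237 and 172 bp, against 1429 and 1581 bp and 988 and 1138 bp at day 4. Without day 0 replicate 1 the day 4 minus day 0 differences were 1.53 to 2.99 at the regions of NFIC, GADD45B, ARID3A, PPP1R15A and RAI1. With lists of equal length the differences at the NFIC and RAI1 regions were both -0.34 in day 4 minus day 0. A region at 0 bp in every library of both days takes a value set by the library medians alone. NRN1's region took -0.36 in this way in the main fit. The equal values at NFIC and RAI1 may be of this kind, so they do not show less covered length at day 4.

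The same sites had peaks at day 0 in the other t(4;14) line. In KMS34 at day 0, the regions held 1079 and 621 bp at PPP1R15A, 990 and 409 bp at ICAM1 and 1235 and 1083 bp at NFIC. In the untreated TKO libraries of KMS11 they held 0 and 199 bp, 1030 and 418 bp, and 0 and 0 bp in the same order. The NFIC site was thus uncalled in all 4 untreated KMS11 libraries and called in all 4 DMSO ones.

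**Figure D3:**
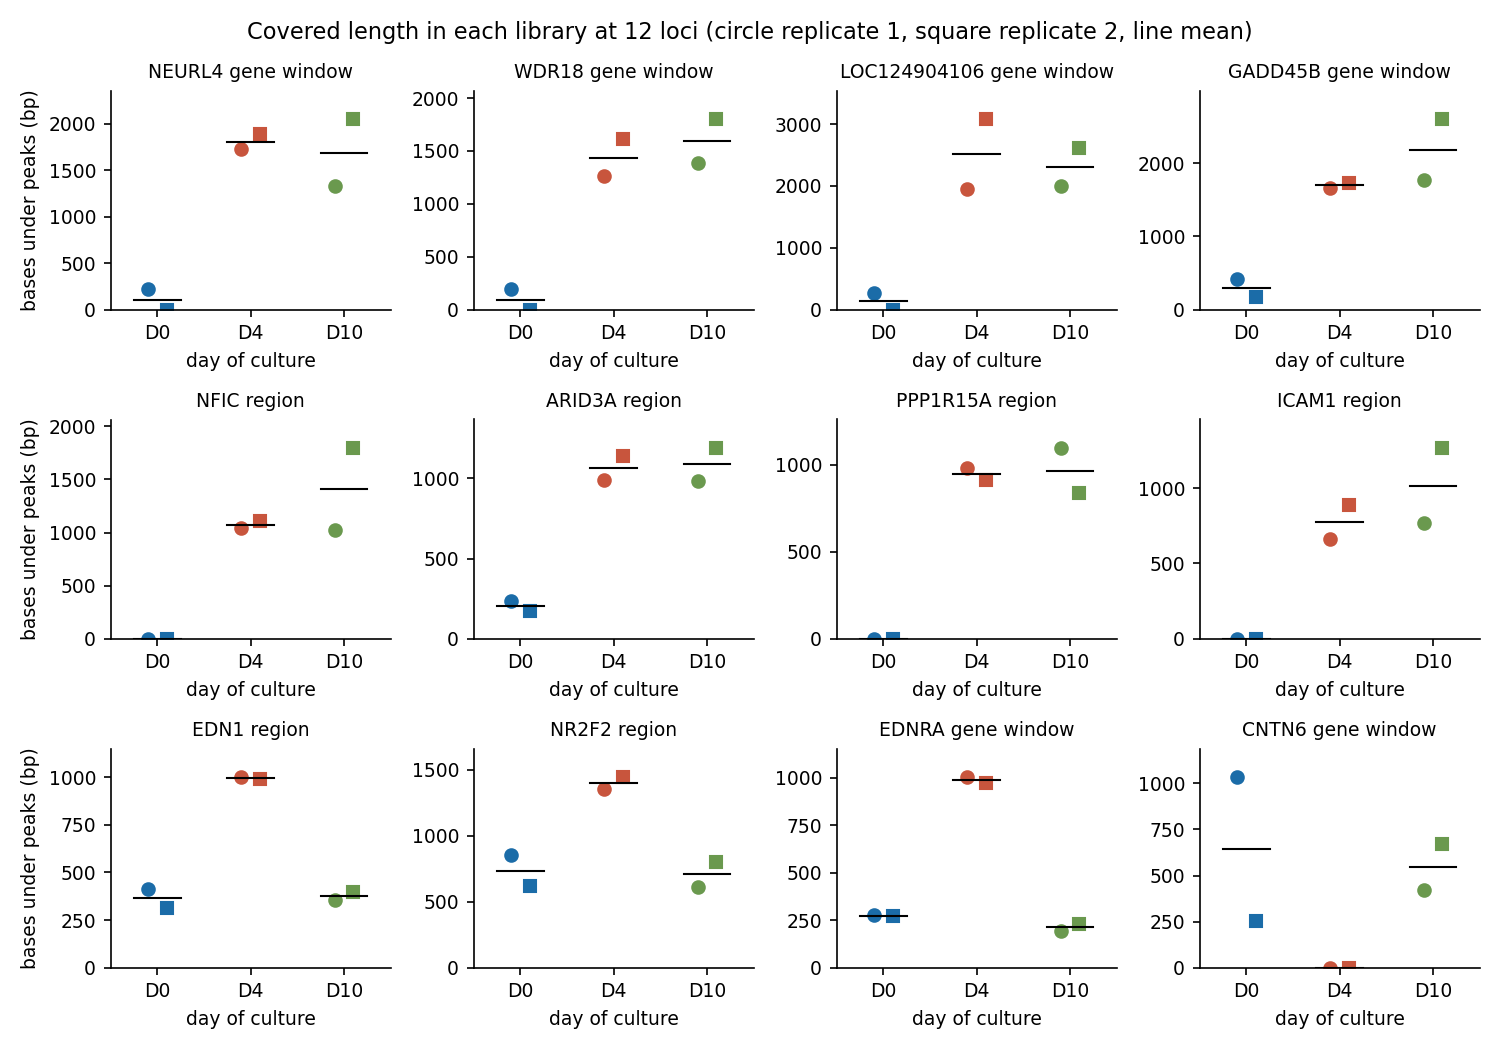
Bases under called peaks (bp, y axis from 0) in each of the 6 libraries by day at 12 loci (circle replicate 1, square replicate 2, line mean of 2). In the upper 8 panels both day 0 libraries lie below all 4 later ones, in the EDN1, NR2F2 and EDNRA panels both day 4 libraries lie above the other 4, and CNTN6 is listed at 0 in both day 4 libraries.

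Start site sequences of 5 of these genes are shown because peaks covered fewer of their bases at day 0 than at day 4. At WDR18 the start region held only 180 and 287 bp of the window's 1261 and 1610 bp at day 4. They were chosen after the values were seen. Each run spans 250 bases before to 50 after the RefSeq start site (GRCh38.p14), read 5′ to 3′ on the gene's strand, with capitals marking matches to 8 searched motifs on either strand. They lie at chr17:7329286-7329585 (minus strand) for NEURL4, chr19:982678-982977 for WDR18, chr19:2475877-2476176 for GADD45B, chr19:48872171-48872470 for PPP1R15A and chr19:10270870-10271169 for ICAM1 (plus strand).
NEURL4: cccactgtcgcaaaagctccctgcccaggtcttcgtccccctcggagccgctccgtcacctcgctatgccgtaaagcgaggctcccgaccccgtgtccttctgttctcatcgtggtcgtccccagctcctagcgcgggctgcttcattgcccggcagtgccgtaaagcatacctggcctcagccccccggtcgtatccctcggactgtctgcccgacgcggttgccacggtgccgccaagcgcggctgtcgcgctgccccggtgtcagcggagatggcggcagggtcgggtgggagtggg
WDR18: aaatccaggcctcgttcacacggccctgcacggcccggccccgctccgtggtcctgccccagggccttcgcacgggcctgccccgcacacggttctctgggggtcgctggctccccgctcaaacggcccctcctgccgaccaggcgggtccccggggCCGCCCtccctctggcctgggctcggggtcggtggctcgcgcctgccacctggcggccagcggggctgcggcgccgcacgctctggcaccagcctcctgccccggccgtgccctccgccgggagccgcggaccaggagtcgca
GADD45B: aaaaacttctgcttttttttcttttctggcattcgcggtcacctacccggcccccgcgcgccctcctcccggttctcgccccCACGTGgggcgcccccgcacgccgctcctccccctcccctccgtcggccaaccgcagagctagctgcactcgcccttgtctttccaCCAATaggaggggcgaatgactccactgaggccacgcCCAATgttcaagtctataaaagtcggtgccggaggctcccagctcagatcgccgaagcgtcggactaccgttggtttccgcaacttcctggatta
PPP1R15A: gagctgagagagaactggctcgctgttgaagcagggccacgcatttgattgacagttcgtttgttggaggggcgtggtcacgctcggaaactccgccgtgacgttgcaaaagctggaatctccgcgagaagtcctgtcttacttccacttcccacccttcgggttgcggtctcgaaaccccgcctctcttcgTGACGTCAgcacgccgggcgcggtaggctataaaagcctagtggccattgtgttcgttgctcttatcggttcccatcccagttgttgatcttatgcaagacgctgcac
ICAM1: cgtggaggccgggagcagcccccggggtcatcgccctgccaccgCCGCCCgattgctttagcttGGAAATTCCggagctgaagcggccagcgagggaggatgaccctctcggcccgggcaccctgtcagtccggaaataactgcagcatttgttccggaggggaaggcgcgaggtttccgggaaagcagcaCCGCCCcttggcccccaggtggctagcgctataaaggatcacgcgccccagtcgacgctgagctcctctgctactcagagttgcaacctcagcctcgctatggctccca

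These runs have GC contents of 68.3%, 77.7%, 61.7%, 56.0% and 64.7% in that order. Of the 300 bases, peaks covered 0 and 0 at day 0 at NEURL4, WDR18, PPP1R15A and ICAM1, and 192 and 174 at GADD45B. At day 4 they covered 296 and 300 at NEURL4, 168 and 275 at WDR18, 300 and 300 at GADD45B, 262 and 276 at PPP1R15A and 300 and 209 at ICAM1. The motifs were AP-1 (TGANTCA), CRE (TGACGTCA), E-box (CACGTG), NF-Y box (CCAAT), SP box (GGGCGG), ETS (CCGGAAG), NRF1 (GCGCA, 1 free base, GCGC) and NF-kappaB (GGNATTTCC), the last added after the values were seen. None of these strings contains another. NEURL4 holds none of these 8 within its 300 bases. WDR18 holds 1 SP box, GADD45B 1 E-box and 2 NF-Y boxes, PPP1R15A 1 CRE, and ICAM1 2 SP boxes and 1 NF-kappaB match. A match describes letters only.

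Over 34961 RefSeq start sites in the table, 481 (1.38%) had a peak over their 300 bases in both day 4 libraries and neither day 0 library, against 5 in the reverse pattern, 44 in both day 10 and neither day 4, and 55 in both day 4 and neither day 10. The table is not complete and holds none on chromosome 8. Median GC content was 67.3% in the 481, 67.0% in the 12036 start sites covered in all 6 libraries and 58.7% in all. An SP box was found in 68.0% of the 481, 76.3% of those always covered and 45.0% of all. The ETS match, common at always covered sites (21.5%), was found in 8.32% of the 481 and 10.2% of all, and the NRF1 match in 4.99%, 13.9% and 5.80% of the 481, the always covered and all. The NF-Y box was found in 21.8%, 37.0% and 34.6%, the E-box in 11.02%, 10.53% and 7.27%, and the NF-kappaB match in 2.29%, 1.21% and 1.43%. AP-1 and CRE matches were found in 6.44% and 1.25% of the 481 and in 7.68% and 1.85% of all. Of the 481, 14.8% lay on chromosome 17, which holds 4.69% of the start sites in the table.

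Chromosome 17 stood out in day 4 minus day 0, a pattern looked at after the values were seen and given as a description. Its 1511 tested regions had a median log2 difference of 0.34, and 13.2% were higher at the unadjusted p. Chromosome 22 had a median of 0.26 (9.86% higher), chromosomes 20 and 21 medians of 0.20 and 0.19, and chromosome 19 a median of 0.10 (8.68% higher), while chromosome 1 had 0.01 (4.40%). Chromosome 17 took 3.28% and 3.21% of covered bases at day 0, 3.70% and 4.31% at day 4 and 4.38% and 4.11% at day 10. The day 0 shares were the 2 lowest of all 22 libraries, and in the 2 TKO libraries the share was 4.40% and 3.86%. The first 10 Mb of the short arm, which hold NEURL4 and KDM6B, had a median difference of 0.64 over 204 regions, with 22.1% higher at the unadjusted p. Without day 0 replicate 2 the chromosome's median was 0.15, and without day 0 replicate 1 it was 0.36. In day 10 minus day 4 the medians of all chromosomes lay between -0.06 and 0.05.

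Signal within peaks also differed on this chromosome. At regions called in all 6 libraries, the median log2 deposited fold enrichment of chromosome 17, relative to that library's median over all such regions, was -0.24 and -0.15 at day 0, -0.02 and -0.02 at day 4 and -0.01 and -0.07 at day 10. Both day 0 values were below the 4 later ones. Coverage of start sites of over 80% GC was 67.9% and 56.4% at day 0, 72.7% and 74.3% at day 4 and 73.4% and 70.4% at day 10, whereas at 60 to 70% GC it was 60.7% and 54.9%, 61.7% and 62.5%, and 61.5% and 63.1%. The part of GC content in these differences was not tested.

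**Figure D4:**
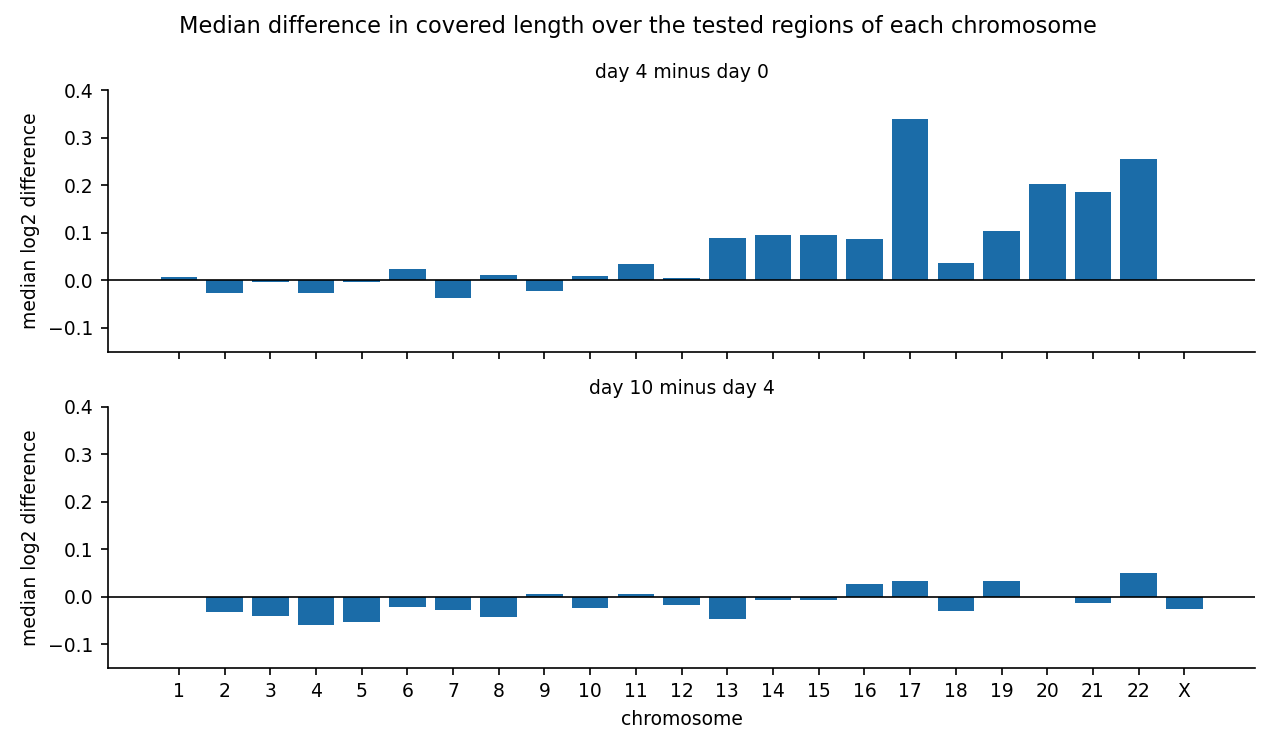
Median log2 difference in covered length (y axis) over the tested regions of each chromosome (x axis) for day 4 minus day 0 (top) and day 10 minus day 4 (bottom), on the same scale. Chromosomes 17 and 22 have the tallest bars in the first comparison, 0.34 and 0.26, and all bars of the second lie between -0.06 and 0.05.

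No gene of 21 lists passed the test in either comparison, and the lists are described by their counts at the unadjusted p and medians. The counts take no account of chromosome. On chromosomes 17, 19 and 22, 13.2%, 8.68% and 9.86% of regions were higher at day 4. Of the list genes named as higher, IKZF3 and KDM6B lie on 17, and KLF2, ICAM1 and PPP1R15A on 19. Others lie elsewhere, such as IRF4 and TXNDC5. The part of chromosome in the list counts was not tested. All 15071 genes had medians of 0.0021 and -0.0018 in the comparisons, in order. The plasma cell list had 6 of 22 tested genes higher at day 4 (27.3%, against 6.65% of all genes) and a median of 0.34. They were TXNDC5, a disulfide isomerase (2039 and 893, 3375 and 3630, 2683 and 3595 bp, 0.85 ± 0.20, adjusted p = 0.292), POU2AF1, a coactivator of B lineage transcription (0.74 ± 0.19), IKZF3, the Ikaros family factor Aiolos (0.73 ± 0.18), JCHAIN, the joining chain of polymeric antibodies (0.94 ± 0.28), IRF4 (1217 and 475, 1817 and 1699, 1234 and 1556 bp, 0.61 ± 0.22, adjusted p = 0.558) and FKBP11 of the secretory pathway. Without day 0 replicate 1, which leaves the shortest list alone for that day, the IRF4 difference in day 4 minus day 0 was 0.90. The list's median in day 10 minus day 4 was -0.13. The list of T and NK markers had a higher median, 0.48 over 15 tested genes with 1 at the unadjusted p, so the plasma cell list was not the only lineage list above the median of all genes.

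Genes tied to t(4;14) and NSD2 had 2 of 13 higher at day 4 (15.4%, against 6.65% of all genes), RRAS2, a Ras family GTPase (747 and 562, 1370 and 1644, 925 and 1251 bp), and KLF2, a zinc finger factor. NSD2 itself held 458 and 494 bp at day 0, 908 and 1413 bp at day 4 and 1154 and 917 bp at day 10 in a window shared with NELFA (0.59 ± 0.29, adjusted p = 0.639). FGFR3 held 577 and 507, 860 and 1219, and 811 and 1064 bp (0.34 ± 0.21, adjusted p = 0.667). For both genes the day 0 libraries were below the other 4 in raw covered length. In KMS34 the day 4 minus day 0 differences were 0.62 for NSD2 and 0.40 for FGFR3, and the differences between the lines were -0.02 (limma adjusted p = 0.997) and -0.06 (0.975).

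None of the other genes followed throughout passed the test. MYC, a driver of proliferation, had 0.07 ± 0.18, CCND2, a D-type cyclin, -0.22 ± 0.18 (0.17 with no scaling), MAF, a transcription factor activated in other myelomas, 0.44 ± 0.19, and PRDM1 0.67 ± 0.36 for day 4 minus day 0. XBP1 had -0.08 ± 0.17 (0.31 with no scaling), SDC1 0.42 ± 0.30, CD38, a surface enzyme, 0.30 ± 0.21 and TNFRSF17, the receptor BCMA, 0.25 ± 0.26. Their adjusted p ran from 0.606 to 0.911. SDC1 was 0.92 without day 0 replicate 1 and -0.07 without day 0 replicate 2. From day 4 to day 10 all 8 had differences of -0.37 to 0.28 with adjusted p of 1.00.

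Lists for stress, growth and signalling gave no gene past the test. AP-1 and immediate early genes had 2 of 35 higher at day 4 (5.71%, JUND and MAFF) and a median of 0.09, below the 6.65% of all genes. NF-kappaB genes had 2 of 17 (11.8%), ICAM1 and TNFAIP2 (646 and 304, 1476 and 1491, 1397 and 1574 bp, 0.98 ± 0.19), and a median of -0.08. Unfolded protein and integrated stress genes had 2 of 30 higher (6.67%), HERPUD1, of endoplasmic reticulum protein degradation, and PPP1R15A, and 1 lower, PSAT1, of serine synthesis. The median was 0.18. Oxidative and heat stress genes had 3 of 25 higher (12%, HSPA1B, HSPB1 and BAG3, all of the chaperone system), and hypoxia and glycolysis genes 4 of 27 (14.8%, VEGFA, ADM, KDM3A and PKM). Interferon response genes had 1 of 29 (3.45%), IFIT3, with a median of -0.03, and sterol and lipid synthesis genes 2 of 29 (6.90%), with a median of -0.08.

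Beside the 6.65% of all genes higher and 1.43% lower at day 4, cell cycle genes had 4 of 38 higher (10.5%), the kinase inhibitors CDKN1A (424 and 0, 750 and 1055, 683 and 1059 bp) and CDKN2C (1527 and 944, 2533 and 3104, 2368 and 3529 bp, 0.71 ± 0.16), the mitotic kinase AURKB and the cyclin CCNE2, and 1 lower, CDK1 (-0.40 ± 0.17). Apoptosis genes had 4 of 27 higher (14.8%, among them BID, BIRC5 and the death receptor TNFRSF10A), with a median of 0.25. Adhesion genes had 6 of 33 (18.2%), among them ITGA5, an integrin subunit (200 and 0, 694 and 1143, 330 and 376 bp), and CD44 (1507 and 1337, 3338 and 3075, 1799 and 3499 bp). Antigen presentation genes had 4 of 21 higher (19.05%): HLA-B, TAPBP, NLRC5 and HLA-DQB1. Enzymes that set or remove methylation of H3K36 and H3K27, with their partners, had 4 of 29 higher (13.8%, KDM6B, NSD3, KDM2B and CBX7) and 1 lower, EZH2 (-0.49 ± 0.20), and a median of 0.15. B cell genes had 1 of 15 (6.67%, BACH2), developmental regulators 4 of 46 (8.70%), and stromal and endothelial markers 2 of 13 (15.4%, KDR and CDH5). Housekeeping genes had 4 of 30 higher, among them EEF1A1, POLR2A and ACTG1, and 1 lower, EMC7, with a median of -0.03, so their share at the unadjusted p (13.3%) was above that of all genes too. Myeloid markers and erythroid and megakaryocyte markers had none of 8 tested each.

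**Figure D5:**
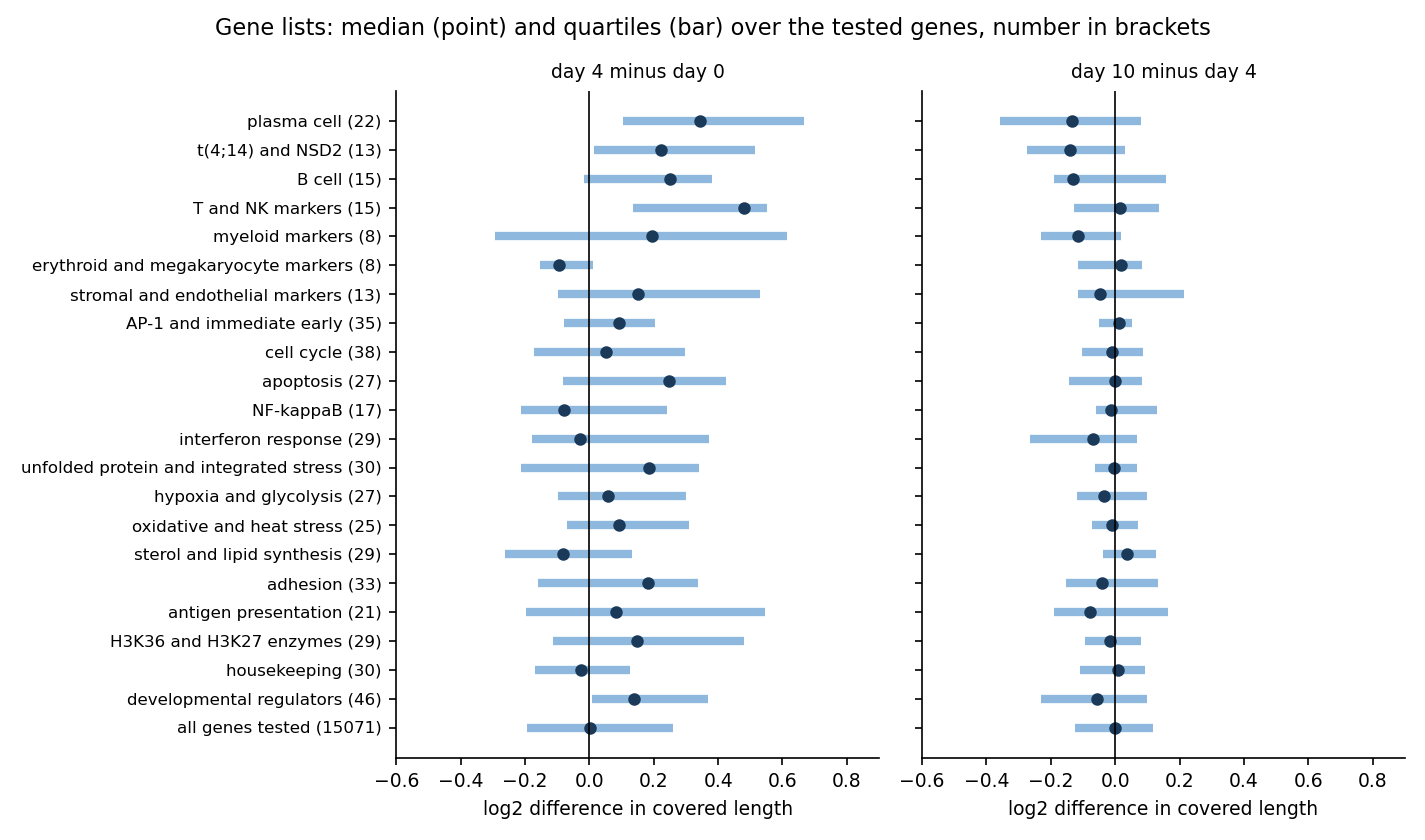
Median (point) and quartiles (bar) of the log2 difference in covered length over the tested genes of each list (number in brackets) for day 4 minus day 0 (left) and day 10 minus day 4 (right). The plasma cell median is 0.34 on the left and -0.13 on the right, and the row of all 15071 genes sits at 0.

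In day 10 minus day 4 no gene or region passed the test, and several of those with the smallest p had their longest covered length at day 4. At the EDN1 start site region (chr6:12289484-12290511), of the vasoconstrictor peptide endothelin 1, covered length was 414 and 316 bp at day 0, 1000 and 990 bp at day 4 and 356 and 399 bp at day 10 (-1.22 ± 0.22, limma adjusted p = 1.00). EDNRA, an endothelin receptor gene, held 276 and 272 bp, 1003 and 973 bp, and 195 and 231 bp in its window (-1.56 ± 0.32). The region at NR2F2, an orphan nuclear receptor gene (chr15:96330190-96331632), held 852 and 616, 1350 and 1443, and 615 and 804 bp (-0.92 ± 0.16). A region between genes whose nearest protein-coding gene is NEIL3 (chr4:177108769-177110387) held 863 and 689, 1498 and 1263, and 448 and 747 bp (-1.14 ± 0.18). In these 4 both day 4 libraries were above the other 4, and the unadjusted p was 0.00105 or less, yet none passed the adjusted test.

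Other windows were empty at day 10. HLA-DQA1, a class II antigen presentation gene, held 348 and 0, 556 and 820, and 0 and 0 bp, and KCNC1, a potassium channel gene, 434 and 184, 439 and 567, and 0 and 0 bp. MUC19, a mucin gene, RXFP1, a relaxin receptor gene, and SMPX, a small muscle protein gene, were likewise listed at 0 in both day 10 libraries. TMEM272 held 688 and 548, 899 and 1165, and 0 and 311 bp (-1.98 ± 0.36), and NDST1, a heparan sulfate enzyme gene, 927 and 298, 1185 and 1087, and 303 and 554 bp (-1.15 ± 0.26). A region inside SLC6A5, a glycine transporter gene, held 408 and 158, 901 and 876, and 151 and 240 bp (-1.78 ± 0.36). With NSD2LDD the region at EDN1 held 977 and 1018 bp at day 4 and 360 and 984 bp at day 10. In the untreated TKO libraries this EDN1 region held 990 and 332 bp. In KMS34 it held 1028 and 819 bp at day 0, 368 and 421 bp in DMSO at day 4 and 1028 and 417 bp in DMSO at day 10. Duplicates of the same group thus split between short and long lengths at this site.

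On the higher side at day 10, SLC38A10, an amino acid transporter gene, held 701 and 188, 594 and 633, and 1360 and 1679 bp (1.04 ± 0.25). SRPK1, a splicing factor kinase gene, held 988 and 567, 800 and 1195, and 1513 and 2099 bp (0.71 ± 0.19), and NOS3, the endothelial nitric oxide synthase gene, 969 and 343, 656 and 557, and 1050 and 2158 bp (1.06 ± 0.27). In all 3 both day 10 libraries were above the other 4. DSCAML1, TUSC3, JAKMIP1, UBQLN2 and GGA1 had differences of 0.60 to 1.12. The region at the start of MMD held 799 and 685, 628 and 627, and 917 and 1355 bp (0.72 ± 0.17). Day 10 replicate 2, which has the widest peaks, held the longest value of each of these. Every gene and region named for this comparison had an adjusted p of 1.00.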

How the data were processed

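ATAC-seq peak lists of 6 KMS11 libraries were used, and those of KMS34, TKO and NSD2LDD libraries stand beside them for reference. Per the submitters' processing notes the authors used fastp, BWA, SAMtools, Picard, MACS3 and deepTools with hg38. The sources used here do not give tool versions, peak calling settings, duplicate removal or the Tn5 shift. The deposited lists give, for each peak, a fold enrichment made by the authors' peak caller and −log10 p and q values. The smallest deposited −log10 q was 2.00. Lists were deposited per library and hold no read counts, so depth and its precision are unknown.

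Peaks were merged over the 6 lists. Covered length plus 100 bp (regions) or 200 bp (genes) was put on the log2 scale, less the library's median over the 20476 regions or 12846 genes covered in all 6 libraries. Features covered in at least 2 libraries were fitted with limma 3.58.1 (R 4.3.3, trend and robust) over 3 groups, with Benjamini-Hochberg adjustment at 0.05. The difference between lines was an interaction term over KMS11 and KMS34. The fit was tested on simulated data for day 4 minus day 0. Among regions it recovered 12% to 18% of log2 differences of -4, -2 and 2, and 60% of those of 4. Among genes it recovered 70% to 94%, with 4 false calls. A count of 0 regions thus does not show that no region differed. Tables and plots used Python 3.11.15, numpy 2.4.6, pandas 2.3.3 and matplotlib 3.10.9. Gene positions and promoters came from RefSeq (GRCh38.p14).

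Named were the 10 genes and 6 regions of smallest p in each direction of each comparison, 4 regions of longest covered length per call pattern, the 3 called members of smallest p per list, and 11 genes always followed. KDM6B's neighbours, further list members and the shown promoters were named after their values were seen. The members and the 21 gene lists (568 genes) were chosen with earlier results of these data known. The NF-kappaB motif and the chromosome summary, with its alternatives, were added after seeing the data. Alternatives were a stricter q, lists of equal length, other scalings, added bases, filters, windows and fits, a replicate block, and each library left out. Some named genes and regions that the rule would include are not reported here.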

Additional observations from a re-analysis of the deposited data

How the results depend on the processing

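Depth cannot be read from peak lists, so a site near the calling limit may be listed in 1 duplicate and not the other, and day 0 replicate 2 weighs on every day 0 value. In day 4 minus day 0, where 0 regions were called, limma called 9 with lists of equal length, 28 with quantile normalization, 13 with more bases added, 132 among regions called in at least 1 library, 40 with all 12 KMS11 libraries in the fit, 480 with all 22 libraries and 1 with the replicate block. Leaving out a single library gave 0 to 1572 regions, the highest without day 0 replicate 1. The 3 genes called became 17 with peaks of −log10 q of 5 or more, 1 with lists of equal length, 5 with quantile normalization, 6 with 12 libraries, 56 with 22 libraries and 47 with windows of 50 kb either side. They became 0 with no scaling, with fewer bases added, with limma without trend and robust fitting and with the replicate block, and 0 to 835 on leaving out a library. For the difference between lines in day 4 minus day 0, the count of 0 became 2 with lists of equal length and 0 to 189 on leaving out a library. In day 10 minus day 4, the fit over 22 libraries called 443 regions and 1 gene, and the difference between lines gave 0 to 1 on leaving out a library. The other alternatives for day 10 minus day 4 called 0.

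Counts of call patterns can by rule only stay or rise when a library is left out, as a single list then decides for its day. Regions called in both libraries of day 4 and neither of day 0 (2190) numbered 966 with lists of equal length, 4190 where coverage of 50% of the region was asked, and 2190 to 8298 on leaving out a library. The reverse (155) numbered 86 at −log10 q of 5 or more, 551 with lists of equal length and 155 to 3704. Both of day 10 and neither of day 4 (657) ran from 657 to 3813. Both of day 4 and neither of day 10 (1317) numbered 604 with lists of equal length and 1317 to 4996. The signs that turned were none of a called result. In day 4 minus day 0, MYC was -0.28 with 50 kb windows, -0.065 with lists of equal length and -0.066 to 0.20 on leaving out a library. CCND2 was 0.17 with no scaling, 0.095 with lists of equal length and 0.026 over gene ends only, XBP1 was 0.31 with no scaling, 0.032 at −log10 q of 5 or more and 0.22 over gene ends, and SDC1 was -0.04 with peak number as covariate and -0.074 without day 0 replicate 2. TNFRSF17 was -0.16 with lists of equal length and -0.083 to 0.58 on leaving out a library, the regions at NFIC and RAI1 were -0.34 and that at SOX2 -0.61 with lists of equal length, that at COL4A5 was 0.92 at −log10 q of 5 or more, and that at RYR2 was -0.30 to 0.93 on leaving out a library. The equal values at NFIC and RAI1 may be set by the library medians alone, as for a region at 0 bp on both days. In day 10 minus day 4, RAI1's region was 3.17 with lists of equal length and -0.73 to 0.27 on leaving out a library, and PPP1R15A's was 0.15 with both lists of equal length and −log10 q of 5 or more, 0.016 with no scaling and -0.39 to 0.37 on leaving out a library. There CD38 was 0.047 over gene ends, and on leaving out a library PRDM1 was -0.94 to 0.22, XBP1 -0.057 to 0.28 and NSD2 -0.49 to 0.17. The cause of these shifts was not tested. Of the alternatives for named genes, regions and lists, 2059 kept direction and side of the threshold (counting NRN1's region, at 0 with no scaling), 69 passed it where the reported value had not, 30 no longer did and 31 turned sign, and 11 values without a test moved. Deviations of same-numbered libraries from group means correlated at -0.043 and -0.032 over regions and -0.0623 and -0.0374 over genes for the compared days. With 2 libraries per day these values cannot show whether same-numbered libraries came from the same culture. The replicate block is therefore given as an alternative.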
